A study of Caenorhabditis elegans with 4 samples.

Results

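Chromosome IV carried 1695 of the 9643 peaks in the whole-series list of COH-3 binding sites, and these peaks are described here. They were taken by chromosome alone, as every line of that list placed on IV. No score, width or replicate support decided which peaks were kept, although earlier results of these data were known when they were chosen. The animals were hermaphrodites of Caenorhabditis elegans carrying the temperature-sensitive mutation fem-2(b245) (genotype fem-2(b245)III), kept at 20 degrees Celsius; the labels call them germline-containing young adults, but gravid adults are described under growth. The series held 4 libraries: 2 of chromatin, fixed with EGS and formaldehyde and recovered by a polyclonal rabbit antibody, affinity purified, against COH-3 (ChIP replicates 1 and 2), and 2 of input DNA. No other genotype or treatment was compared, and the fem-2 mutation is shared by every library. The input libraries had no values in the 3 peak lists used here. The labels do not say whether the replicates came from separate cultures, so the spread between them may be technical.

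COH-3 is an α-kleisin, the component that bridges the heads of the SMC pair and so shuts the cohesin ring. With its close relative COH-4 it forms cohesin that loads in the meiotic germline, where cohesin rings hold sister chromatids together and organise the axis of each chromosome. Each C. elegans autosome has a gene-rich centre in which crossovers are rare, flanked by arms that are richer in repeats and recombine more. On chromosome IV the left end holds the pairing centre, the region through which the homologues pair, which is bound by the zinc-finger protein ZIM-3. The same chromosome is known for broad clusters of piRNA genes, which give the small RNAs that guard the germline. Positions below are on WormBase WS220, counted from 1. The genes and the DNA sequence under the peaks were not analysed here, because the gene table at hand is for another assembly.

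Most chromosome IV peaks were narrow and low in score. Their width ran from 146 to 6642 bp, with a median of 293 bp (quartiles 203 and 481 bp). Peaks under 250 bp numbered 653, or 38.5% of the peaks, and made up 16.2% of the covered length. The 35 peaks of 2000 bp or more were 2.06% of the peaks and 14.6% of the covered length. In total 765 kb was covered, which is 4.37% of the 17.5 Mb chromosome. The score, a value per peak from the authors' peak caller whose kind is not stated, had a median of 6.36 (quartiles 4.11 and 12.1) and ran from 1.41 to 181.93. Wider peaks tended to have higher scores, with a Spearman rho of 0.66 across the 1695 peaks, which share the same libraries.

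The first question was how many of these peaks each ChIP replicate also held in its own list. Replicate 1 had 542 peaks on chromosome IV and replicate 2 had 853. Of the 1695 whole-series peaks, 185 overlapped a peak of both replicates by at least 1 bp (10.9%, exact Clopper-Pearson 95% interval 9.47 to 12.5), close to the 10.6% over all nuclear chromosomes. A further 372 overlapped replicate 1 alone (21.9%, against 23.8% over all nuclear chromosomes) and 485 replicate 2 alone (28.6%, 26.5 to 30.8, against 24.8%). The remaining 653 had no peak in either replicate list (38.5%, 36.2 to 40.9, against 40.9%). Peaks found in both replicates had a median score of 24.56 and a median width of 693 bp, whereas those found in neither had a median score of 4.42 and a median width of 208 bp. These intervals cover counting error over peaks, and read depth behind the lists is unknown, so a missing peak does not show missing binding. The lists may also have had unlike cut-offs. Their lowest scores were 50.05 in replicate 1, 50.07 in replicate 2 and 1.41 in the whole-series list, on scales that may differ. Their lines name MACS for the replicates and MACS v2 for the whole series. Whether this bears on the shares was not tested.

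Support by both replicates was confined to the upper part of the score range. None of the 847 peaks in the 5 weakest score classes, with scores up to 6.36, was found in both, and 516 of them (60.9%) were in neither list. The share found in both was 12.4% (7.81 to 18.3) in the eighth of 10 classes and 32.5% (25.5 to 40.2) in the ninth. Among the 170 strongest peaks, with scores of 22.69 or more, it was 59.4% (51.6 to 66.9), against 59.8% of the strongest 10% over all nuclear chromosomes. The whole-series list describes the same series as the replicate lists, so this rise is not independent support for the score. Replicate 2 held 150 of the 170 strongest peaks (88.2%, 82.4 to 92.7) and replicate 1 held 120 (70.6%, 63.1 to 77.3). Of these strongest peaks 49 were found in replicate 2 alone and 19 in replicate 1 alone.

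**Figure D1:**
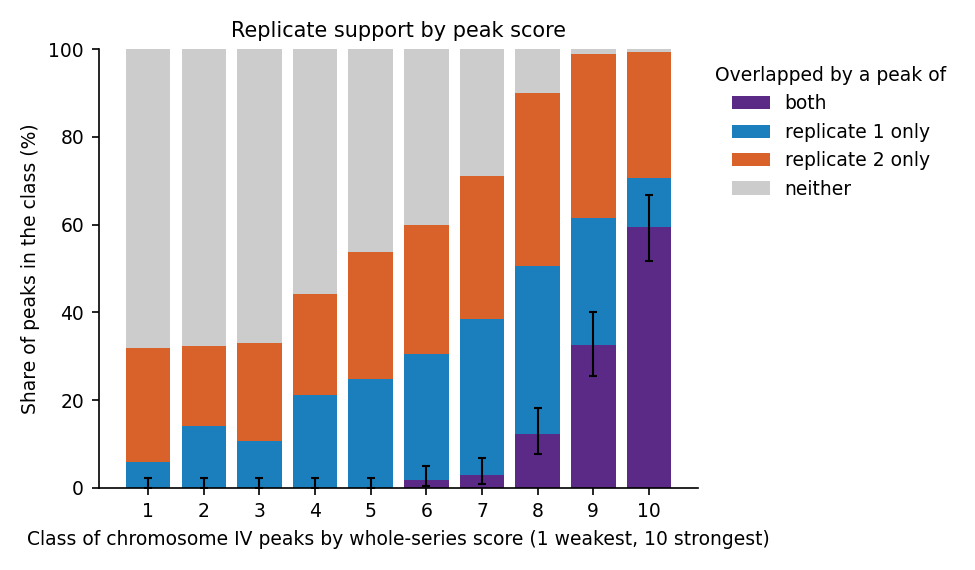
Share of the chromosome IV peaks (y axis, %) overlapped by a peak of both replicates, of 1 replicate or of neither, in 10 classes of equal size by whole-series score (x axis); black bars are exact 95% intervals of the share in both. The share in both is 0 in the 5 weakest classes and 59.4% in the strongest.

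Width went along with support in the same way. A wider peak offers more bases for an overlap of at least 1 bp, and wider peaks tended to score higher. The shares below do not separate width from the overlap rule or from score. Of the peaks under 250 bp, 2 of 653 were found in both replicates (0.31%), and of the 283 peaks from 500 bp up to 1 kb, 74 were (26.1%, 21.1 to 31.7). For the 87 peaks from 1 kb up to 2 kb the number was 42 (48.3%, 37.4 to 59.2). The widest class did not go beyond this, with 16 of 35 peaks of 2000 bp or more found in both (45.7%, 28.8 to 63.4), 13 in replicate 2 alone and 6 in replicate 1 alone. Broad peaks of 1500 bp or more numbered 58 on this chromosome, of which 39 lay in the centre, 12 in the right arm and 7 in the left arm, and 29 were found in both replicates. In the 152 cases in which a whole-series peak met exactly 1 peak of each replicate, the median width was 615 bp in the whole-series list, 523 bp in replicate 1 and 388.5 bp in replicate 2. The replicate 1 peak was the wider in 110 of these 152.

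The centre of chromosome IV held more whole-series peaks per Mb than either arm. The left arm, up to 3.9 Mb, had 315 peaks or 80.8 per Mb. The centre had 1047 peaks or 115 per Mb, and the right arm, from 12.97 Mb, had 333 peaks or 73.6 per Mb. The centre was thus 1.5 times as dense as the arms together, at 76.9 per Mb. By covered length the ratio was 1.60, with 5.34% of the centre under peaks, 3.30% of the left arm and 3.37% of the right arm. The median score was 6.38 in the left arm, 6.08 in the centre and 7.22 in the right arm, and the median widths were 282, 293 and 314 bp. The upper quartiles were further apart, at scores of 11.8, 11.1 and 15.9 and widths of 431, 479 and 538 bp, highest in the right arm.

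The replicates differed in how far they showed this pattern. Replicate 1 had 19.0 peaks per Mb in the left arm, 40.7 in the centre and 21.9 in the right arm. Replicate 2 had 46.9 per Mb in the centre and 50.8 over the arms together. The centre to arms ratio by peak number was therefore 1.98 in replicate 1 (1.65 to 2.39) and 0.92 in replicate 2, where the interval of 0.80 to 1.06 spans 1. By covered length it was 2.24 in replicate 1 and 1.11 in replicate 2, so both were above 1 on that measure. The intervals treat each peak as independent, although many peaks lay in runs, so they may be too narrow and are not a test. With 2 libraries no test between samples can be run. Expressed as numbers, replicate 2 had 2.64 times as many peaks as replicate 1 in the left arm, 1.15 times in the centre and 2.35 times in the right arm. Peaks found in both replicates stood at 12.8 per Mb in the centre, 7.44 in the left arm and 8.84 in the right arm, a centre to arms ratio of 1.56. No further library was at hand to set against the pair.

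**Figure D2:**
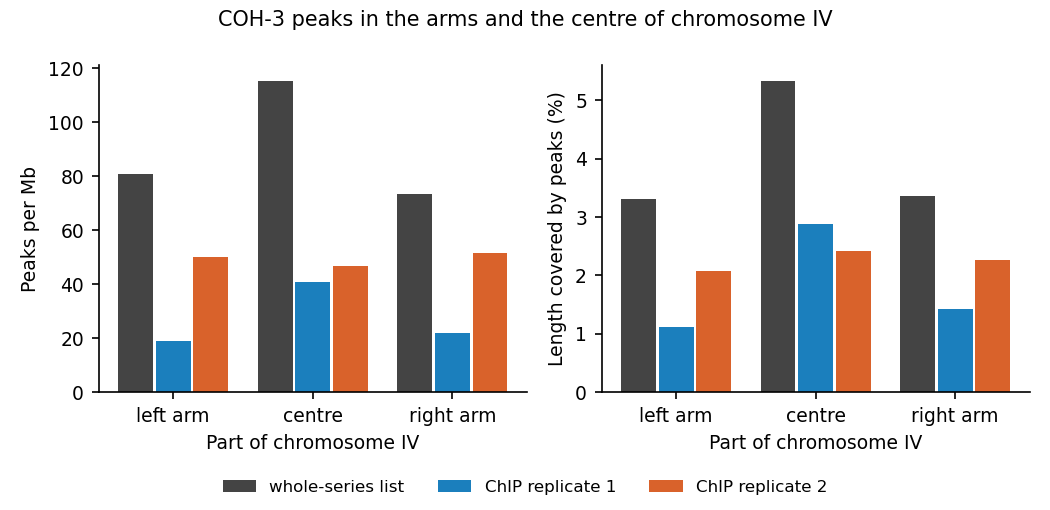
Peaks per Mb (left panel) and percent of length covered by peaks (right panel) in the left arm, centre and right arm of chromosome IV, each bar 1 list. Replicate 1 is highest in the centre, at 40.7 per Mb, and replicate 2 is between 46.9 and 51.5 per Mb in all 3 parts.

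Support followed the arms too. In the left arm 37.5% of the whole-series peaks (32.1 to 43.1) were found in replicate 2 alone and 14.3% (10.6 to 18.6) in replicate 1 alone, and in the right arm the shares were 39.6% (34.3 to 45.1) and 18.3% (14.3 to 22.9). In the centre they were close to each other, at 22.4% (20.0 to 25.1) and 25.4% (22.8 to 28.2). Among the strongest 10% of peaks, 18 of the 44 in the right arm were found in both replicates (40.9%, 26.3 to 56.8) and 21 in replicate 2 alone. In the centre 63 of 99 were found in both (63.6%, 53.4 to 73.1), and in the left arm 20 of 27 (74.1%, 53.7 to 88.9). The right arm held 44 of these peaks among its 333 (13.2%, 9.77 to 17.3), the centre 99 of 1047 (9.46%, 7.75 to 11.4) and the left arm 27 of 315 (8.57%, 5.72 to 12.2).

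The difference in density between the left arm, whose end carries the pairing centre, and the right arm was small beside its counting error. The left to right ratio was 1.10 in the whole-series list (interval carried over from the exact 95% interval of the share of peaks, 0.94 to 1.28). It was 0.87 in replicate 1 and 0.97 in replicate 2, each with an interval that spans 1. The outermost 100 kb on the left held 3 whole-series peaks, 1 of replicate 1 and 3 of replicate 2, and the outermost 100 kb on the right held 6, 2 and 3. The first peak ran from base 1 to 238 with a score of 27.08, and both replicate lists also began with a peak at base 1, ending at 246 in replicate 1 and at 244 in replicate 2. The last, at 17493433 to 17493816, whose end was taken as the end of the chromosome, scored 47.56 and was found in neither replicate list. It was the highest-scoring peak without a replicate, and the next of this kind, at 15472442 to 15472676, scored 16.47.

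In bins of 1 Mb the whole-series counts ranged from 48 at 15 to 16 Mb to 158 at 11 to 12 Mb, with a median of 101 over the 17 complete bins. Replicate 1 had its highest and lowest bins in the same places, with 64 and 8 peaks. Replicate 2 had its highest count, 87, at 6 to 7 Mb and its lowest, 21, at 5 to 6 Mb, where replicate 1 had 37. The neighbouring bins from 5 to 7 Mb thus ran in opposite directions in the replicates, since replicate 1 had 37 and then 22 peaks where replicate 2 had 21 and then 87. Of these 87 peaks, 53 lay within a single stretch of 100 kb, described below, so this contrast leans on that stretch. Across the 17 bins the counts of the whole-series list and replicate 1 had a Pearson r of 0.81 and a Spearman rho of 0.75. For the whole-series list and replicate 2 they were 0.41 and 0.34, and for the replicates with each other -0.05 and -0.13. The bins lie on 1 chromosome and come from the same libraries, so these coefficients are descriptions.

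**Figure D3:**
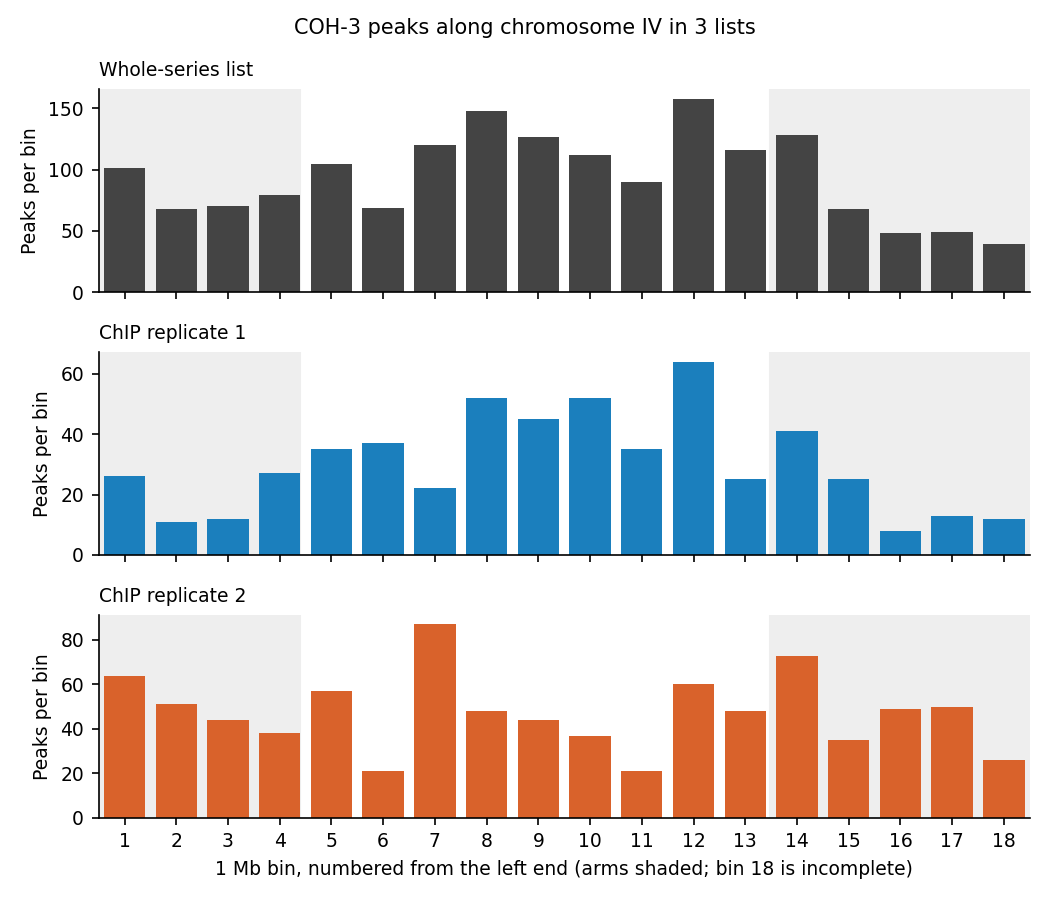
Number of peaks (y axis) in each 1 Mb bin of chromosome IV, numbered from the left end (x axis), in the whole-series list and the lists of ChIP replicates 1 and 2; the arms are shaded. The whole-series list and replicate 1 are highest in bin 12, with 158 and 64 peaks, and replicate 2 is highest in bin 7, with 87.

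The stretches from 5 to 7 Mb and from 14 to 17 Mb, chosen at Mb scale from textbook knowledge of the piRNA clusters and not checked against an annotation of this build, were set against the rest of the chromosome. They were chosen to lie inside the clusters, so the rest may hold cluster sequence too. Together they had 70.8 whole-series peaks per Mb and the rest had 107 per Mb, a ratio of 0.66. The lower density came mostly from the stretch at 14 to 17 Mb, with 55.0 per Mb, while that at 5 to 7 Mb had 94.5. Replicate 1 gave a ratio of 0.60, with 21.0 against 35.0 per Mb, and replicate 2 a ratio of 0.99, with 48.4 against 48.9. The stretch at 14 to 17 Mb lies in the right arm, whose other 1.52 Mb held 168 peaks or 110.2 per Mb, 128 of them at 13 to 14 Mb. It was the sparser part of that arm in each list, with 15.3 against 34.8 per Mb in replicate 1 and 44.7 against 65.0 in replicate 2. In the centre, the stretch at 5 to 7 Mb had fewer peaks per Mb than the rest in the whole-series list (94.5 against 121) and in replicate 1 (29.5 against 43.8), and more in replicate 2 (54.0 against 44.8). Of the 108 replicate 2 peaks at 5 to 7 Mb, however, 53 lay within a single stretch of 100 kb, described below. The replicate 2 values for 5 to 7 Mb thus lean on that stretch.

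Peaks on chromosome IV were unevenly spaced. The gap from the end of a peak to the start of the next had a median of 2621 bp, with quartiles of 454 and 11966 bp. Of the 1694 gaps, 449 were under 500 bp (26.5%) and 27.7% were over 10 kb. The median was 4176 bp in the left arm, 2355 bp in the centre and 2324 bp in the right arm. Gaps under 500 bp were 31.0% of those in the right arm, 27.2% in the centre and 19.7% in the left arm, and gaps over 10 kb were 31.9%, 24.4% and 34.1%. Few of the close pairs were joined by a single peak of a replicate: of the 449 pairs less than 500 bp apart, 50 were joined by 1 peak of replicate 1 and 33 by 1 peak of replicate 2.

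The longest stretch without a whole-series peak was 128 kb, at 14327289 to 14455151. The next 4 ran from 3748658 to 3871686, from 15972644 to 16095356, from 16261602 to 16382250 and from 15199870 to 15319845, with lengths between 120.0 and 123 kb. The right arm held 4 of these 5 stretches and the left arm 1. Replicate 1 had no peak in any of the 5. Replicate 2 had 4 peaks in the stretch that starts at 15972644 and 2 in the one that starts at 16261602, so these were empty in the whole-series list but not in replicate 2.

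Local clusters were taken as runs of at least 5 peaks with gaps of at most 2 kb. There were 53 runs, with 376 peaks (22.2% of the chromosome's peaks), a median of 6 peaks and a median span of 5.78 kb. The centre had 35 runs or 3.86 per Mb, the right arm 12 or 2.65 per Mb and the left arm 6 or 1.54 per Mb. Peaks in runs were weaker at the median, with a score of 5.57 inside and 6.42 outside, and slightly wider, at 322.5 against 288 bp. Of the peaks inside, 5.32% belonged to the strongest 10%, against 11.4% outside. Even so, 17 of the 53 runs held a peak of the strongest 10%, and the highest-scoring peak of the chromosome lay in a run. In runs 25 of 376 peaks were found in both replicates (6.65%, 4.35 to 9.66), and outside runs 160 of 1319 (12.1%). Support by any replicate went the other way, since 31.4% of the peaks in runs were in neither list (26.7 to 36.3) against 40.6% outside (37.9 to 43.3). Replicate 1 held 40.4% of the peaks in runs and 30.7% of those outside, and replicate 2 held 34.8% and 40.9%.

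Many runs were found in a single replicate. Of the 53 runs, 15 had support from replicate 1 and none from replicate 2, 11 the reverse, and 27 had support from both lists. Among the 7 runs of 10 or more peaks, 6 had support from a single replicate, 4 from replicate 2 and 2 from replicate 1. The run with the most peaks, 19, spanned 6710950 to 6728460 with scores from 2.1 to 6.17. Replicate 2 had 22 peaks in it, 7 of which met no whole-series peak, and replicate 1 had 0. A second run, of 17 peaks at 6689091 to 6703990, held 20 peaks of replicate 2 and 0 of replicate 1. The 100 kb around the centre of the largest run held 53 of the 87 replicate 2 peaks counted at 6 to 7 Mb, and 1 peak of replicate 1.

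Of the other runs with 12 or more peaks, 2 had support from a single replicate and 1 from both. At 890419 to 910150, in the left arm, 17 whole-series peaks went with 8 peaks of replicate 2 and 0 of replicate 1. At 7042418 to 7054401 it was replicate 1 that held peaks, 3 of them with scores from 232.64 to 527.72, while replicate 2 had 0 among the 14 whole-series peaks. At 14217933 to 14225255, 12 whole-series peaks went with 8 peaks of replicate 1 and 1 of replicate 2, and 1 of the 12 was found in both.

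**Figure D4:**
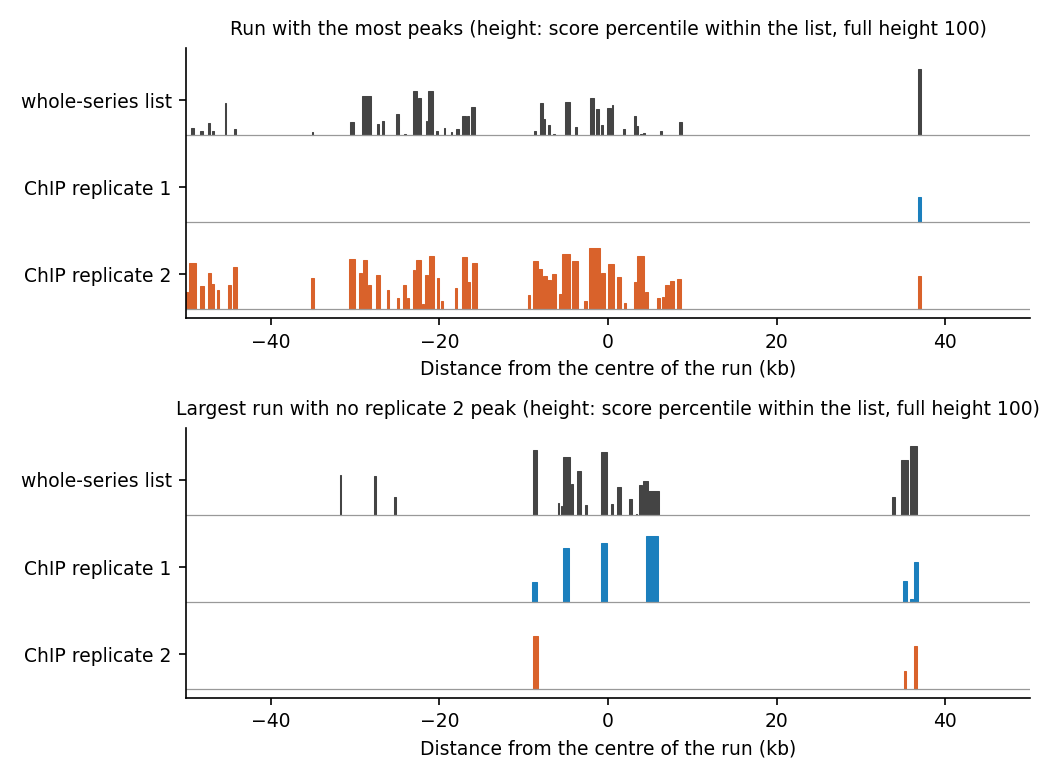
Peaks within 50 kb on either side of the run with the most peaks (top) and of the largest run with no replicate 2 peak (bottom), by distance from the centre of the run (x axis, kb); each block is a peak, its height the score percentile within its own list. In the top map replicate 2 has 53 peaks and replicate 1 has 1, and in the bottom map the run holds 3 peaks of replicate 1 and 0 of replicate 2.

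Unlike most of the large runs, most of the strongest sites were found in both replicates, although some of these sites lay in runs themselves. The 25 peaks of highest whole-series score, from 80.86 to 181.93, had a median width of 1134 bp (375 to 5134 bp). Of these, 16 lay in the centre, 5 in the right arm and 4 in the left arm. Both replicates held 20 of the 25, replicate 2 alone held 4 and replicate 1 alone held 1. Within each replicate's chromosome IV list the matching peaks ranked high, with a median score percentile of 91.1 in replicate 1 (21 peaks) and 95.7 in replicate 2 (24 peaks). Over all 185 peaks found in both, the replicate scores had a Spearman rho of 0.32. In replicate 1, 5 chromosome IV peaks were tied at a score of 3100 and 1 was higher, and in replicate 2 the numbers were 13 and 1, so that the top of each list could not be ranked.

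The highest-scoring peak was at 11399770 to 11401716, with a whole-series score of 181.93. Its replicate 1 peak had a score of 3227.04, the highest of that list on chromosome IV, and its replicate 2 peak was among those tied at 3100. At 11406226 to 11407672 a peak scored 115.26, with replicate scores of 1738.02 and 679.14. Leftward lay a pair of wide peaks, at 11322957 to 11327884 (4928 bp, score 164.7) and at 11336957 to 11341722 (4766 bp, score 170.6), separated by 9.07 kb and tied at 3100 in both replicates. These 4 sites thus lay within 84.7 kb. The replicates placed their peaks over the same wide sites: 4243 bp in replicate 1 and 3663 bp in replicate 2 for the first of the pair, and 3675 and 3729 bp for the main peak of the second.

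**Figure D5:**
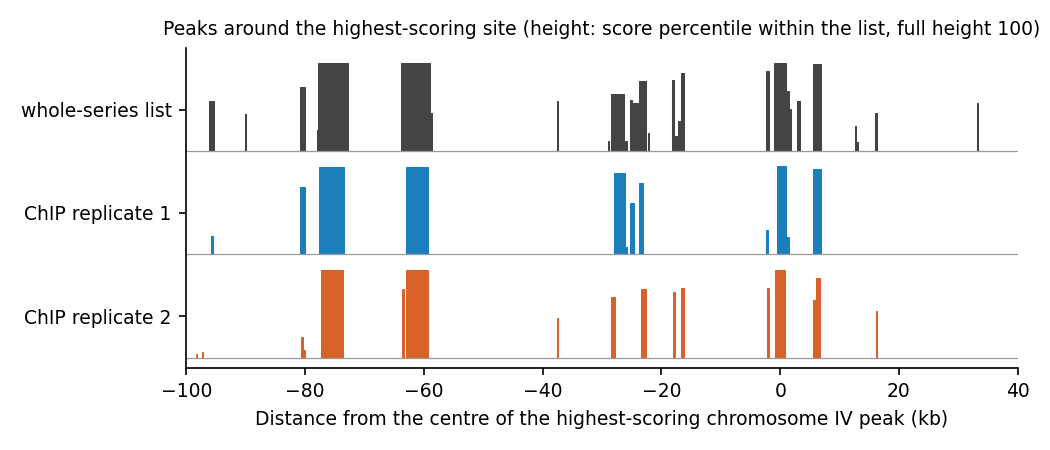
Peaks of the 3 lists from 100 kb left to 40 kb right of the centre of the highest-scoring chromosome IV peak (x axis, kb); each block is a peak, its height the score percentile within its own list. The 4 sites among the 25 strongest appear in the whole-series list and in both replicates, and the weaker peaks between them differ between the replicates.

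Several strong sites came in close groups of narrower peaks. In the left arm a peak of 538 bp at 3311088 to 3311625 scored 181.28, and one of 574 bp at 3313221 to 3313794 scored 152.35. Their replicate 1 scores were 1203.78 and 622.3 and their replicate 2 scores 1697.41 and 1317.38. Within 7.96 kb at 4720294 to 4728255 lay 3 of the 25, with scores of 100.32, 124.43 and 135 and widths of 659, 507 and 741 bp. A further pair at 7485734 to 7487123 and 7487282 to 7488723 scored 151.49 and 135.88, and replicate 1 gave it 2505.14 and 2233.79 where replicate 2 gave it 1386.34 and 674.7. In all, 9 of the 25 had another of the 25 within 10 kb, midpoint to midpoint. On the other chromosomes the same count ran from 0 on X to 12 on V.

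The other strong sites found in both replicates lay at least 156 kb, midpoint to midpoint, from any other of the 25. Some of them had weaker peaks close by, and the one that starts at 4184666 lay in a run. The fifth peak by score, at 9196005 to 9197314, scored 153.76 in the whole-series list, 1110.6 in replicate 1 and 1432.2 in replicate 2, and the nearest other of the 25 was 727 kb away. In the right arm the peak at 16845298 to 16845948 scored 111.04, with 424.13 in replicate 1 and 799.79 in replicate 2. The replicates differed in score at some of these sites. The peak at 15373651 to 15375354 scored 125.28 and was tied at 3100 in replicate 2, while its replicate 1 score of 53.93 was at percentile 3.69 of that list. At 8468465 to 8471040 the replicate 2 score was likewise 3100 and that of replicate 1 was 253.61. The remaining 5 of the 20, which start at 4390278, 4184666, 654712, 7946650 and 15530515, scored between 80.86 and 114.11.

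Some sites with the highest scores of a replicate list had no peak in the other. Replicate 2 alone held the peaks at 13463691 to 13464228 (whole-series score 92.47, replicate 2 score 2391.19), 11070814 to 11075947 (91.73 and 3100), 15895688 to 15896264 (88.81 and 2666.78) and 2828414 to 2830630 (88.21 and 3100). Replicate 1 alone held the peak at 11912880 to 11916360, with a whole-series score of 85.09 and a replicate 1 score of 3100. The first group had 2 sites in the right arm, 1 in the centre and 1 in the left arm, and the replicate 1 site lay in the centre.

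The widest peaks were mostly of this one-sided kind. The widest, 6642 bp at 8575089 to 8581730, scored 53.56 and met 4 separate peaks of replicate 2 and 0 of replicate 1. The next 3, at 4416366 to 4422078, 11070814 to 11075947 and 11610400 to 11615497, measured 5713, 5134 and 5098 bp and were also found in replicate 2 alone. Their replicate 2 scores were 3161.57, 3100 and 3100, which are the top of that list. Only the fifth, the 4928 bp peak at 11322957 described above, was found in both replicates.

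Seen from the replicate lists, replicate 1 was almost wholly contained in the whole-series list and replicate 2 less so. Of the 542 replicate 1 peaks, 529 met a whole-series peak (97.6%, 95.9 to 98.7), and of the 853 replicate 2 peaks, 706 did (82.8%, 80.1 to 85.2). Both shares lay inside the range of the other nuclear chromosomes. That range was 96.3% to 98.8% for replicate 1 and 73.5% to 88.6% for replicate 2. The 147 replicate 2 peaks without one had a median replicate 2 score of 64.1, against 148.78 for the others. The share missing was 22.1% in the left arm, 13.2% in the centre and 20.6% in the right arm. The highest-scoring of them, at 692692 to 693433 and 694947 to 695498, had scores of 339.72 and 192.41 and lay in a run of 9 whole-series peaks at 689302 to 698048 that replicate 1 did not support. The highest of the 13 missing replicate 1 peaks, at 13316999 to 13317498, scored 119.35. Between the replicates themselves, 189 of the 542 in replicate 1 met one of replicate 2 (34.9%, 30.9 to 39.0) and 201 of the 853 in replicate 2 met one of replicate 1 (23.6%, 20.8 to 26.6).

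Beside the other 5 nuclear chromosomes, chromosome IV fell inside the range of the others for most measures. Its 96.9 peaks per Mb lay between 56.9 on X and 138 on III, its median width between 268 and 308 bp, and its share of peaks in runs, 22.2%, between 14.7% on X and 24.6% on III. The ratio of the middle part to the outer parts, with the chromosome split into 3 equal lengths, was 1.51, where the others ran from 1.01 on X to 1.73 on V. It stood first of the 6 in the share of whole-series peaks found in replicate 2 alone, 28.6% against 19.9% on X to 25.4% on II, and in the ratio of replicate 2 to replicate 1 peaks, 1.57 against 0.80 on X to 1.51 on I. These are 6 values from the same libraries, and no test of the differences between chromosomes was run.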

How the data were processed

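Positions and scores were taken from 3 deposited lists of ChIP-seq peaks, 1 for each ChIP replicate and 1 for the whole series. The genome build is WormBase WS220, per the file headers, the source column of the lines names MACS for the replicates and MACS v2 for the whole series, and the submitters' processing notes name BWA and ce10. The peak score is the authors' deposited value, of a kind not stated, and was used to rank peaks within a list. The sources used here do not say how inputs and replicates entered the whole-series list, and depth is unknown.

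Peaks were placed by midpoint, and the chromosome was taken to stop where its last listed peak stops. Every result is a description with no test, since there are 2 ChIP libraries. Shares have exact 95% binomial intervals. These, and the ratio intervals carried over from them, treat peaks as independent and may be too narrow. The arm boundaries came with the choice of chromosome. Regions were named by rule: the 25 strongest and 5 widest peaks, the 5 largest runs, the 5 longest gaps, the first and last peak, and the strongest unmatched peaks; the run at 689302 was named, and the stretches at 5 to 7 and 14 to 17 Mb were set against the rest of the centre and of the right arm, after their values were seen. Alternatives varied the overlap rule, score cut, gap limit, boundaries and list. Members and lists were chosen with earlier results of these data known. Overlaps were checked with bedtools 2.31.1 and the functions tested on simulated data (Python 3.11.15, numpy 2.4.6, pandas 2.3.3, scipy 1.17.1).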

Additional observations from a re-analysis of the deposited data

How the results depend on the processing

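Of 32 alternatives over 7 results, 12 stayed within the limits set for them, 19 moved and 1 reversed. The share of chromosome IV peaks found in both replicates, 10.9%, was 6.43% under a rule of 50% reciprocal overlap and 19.0% with a tolerance of 1000 bp. With a replicate left out it became the share found in the other, 32.9% to 39.5%. For the strongest 10% of peaks the share of 59.4% was 39.4% under 50% reciprocal overlap, and 70.6% to 88.2% with a replicate left out. The centre to arms ratio of 1.5 ranged from 0.92, for the replicate 2 list alone, which reversed it by peak number with an interval that spans 1 (by covered length replicate 2 gave 1.11), to 1.98 for the replicate 1 list alone. The left to right ratio of 1.10 was 0.87 to 0.97 in the replicate lists, 0.99 in the upper 50% of the list by score and 0.98 by covered length. The ratio of the piRNA stretches to the rest, 0.66, was 0.60 to 0.99 in the replicate lists and 0.58 by covered length. The median gap of 2621 bp was 9145 bp in the upper 50% by score and 7891 to 8928 bp in the replicate lists. The number of runs, 53, was 34 with gaps of up to 1 kb, 89 with gaps of up to 5 kb, 5 in the upper 50% by score and 4 to 12 in the replicate lists, which hold fewer peaks. The causes of these changes were not tested. No paired analysis was possible because peak lists give nothing for the 2 inputs, whose numbers match those of the ChIP samples. The unknown read depth, the possibly unlike cut-offs of the lists and the ties at 3100 limit every rank and every missing peak.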
